A study of Mus musculus with 16 samples.

Results

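Sertoli cells of the newborn mouse testis with at most 1 UMI of each of 2 small sets of cell division genes were described from single-cell RNA sequencing of dissociated whole testes at postnatal day 2 (P2). Their members were chosen by UMIs (unique molecular identifiers, which count each captured mRNA once), so the genes used for the choice are a description and not a finding. Kept barcodes had 2000 genes or more, and mitochondrial UMIs made up no more than 10%. A kept cell was called a Sertoli cell with at least 3 UMIs of *Amh*, anti-Müllerian hormone, and at least 2 of the markers *Rhox8*, *Cst9*, *Cst12* and *Aard*. It was called non-cycling with at most 1 UMI over the 4 genes *Mki67*, *Top2a*, *Pclaf* and *Rrm2* and at most 1 UMI over the 3 genes *Ube2c*, *Plk1* and *Ccnb1*. The name thus stands for a limit on these genes, and 14 other replication genes still summed to 725 and 766 CPM in the members. The rule selected 1689 of 11279 kept cells, 1013 from wild type and 676 from the library labelled *Ddx5* knockout.

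The first group was wild-type mice. The second was *Ddx5* conditional knockout mice, in which Cre under the *Mvh* promoter deletes a floxed *Ddx5* in germ cells, so that no deletion was designed for Sertoli cells. The labels list 8 samples for each genotype, but the barcodes carry only 2 suffixes, so each genotype counts as 1 library. The lanes given for these samples are partly shared by both genotypes and partly held by 1 genotype only. Without replicates no test was run, and the intervals are 95% intervals of counting error only. The suffixes were tied to genotypes by the cell numbers in the study's text, set beside the 6328 and 4950 cells that passed a limit of more than 2000 genes here. *CRE*, a sequence added to the reference, was at 0 CPM in wild-type cells outside the Sertoli rule and at 0.537 CPM in those of the second suffix, and no member of either library held a *CRE* UMI. The targeted gene was checked first. *Ddx5*, an RNA helicase, stood at 918 CPM (UMIs of a gene scaled to a common total per group) in wild-type members and 865 CPM in the others, a ratio of 0.943 (0.917 to 0.97). In 84 wild-type and 12 other cells with germ cell markers *Ddx5* was at 1220 and 1736 CPM, so it was not lower under the knockout label. Why it was not lower was not tested. The median share of ribosomal protein UMIs in these cells was 16.1% and 34.4%, and its part in the *Ddx5* values was not tested. Those cells were 84 of 6329 and 12 of 4950 kept cells, so that the second value rests on few cells, and "knockout-labelled" is used throughout.

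Sertoli cells line the seminiferous tubules, carry the germ cells and feed them. Before puberty they still divide, and they secrete anti-Müllerian hormone, which removes the female ducts in the male fetus, as well as inhibin and growth factors for germ cells. SOX9, WT1, GATA4 and NR5A1 are transcription factors that make and keep the Sertoli fate. Dividing and non-dividing Sertoli cells are found side by side in the newborn testis.

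Promoters of leading genes are shown because these genes were high together in the members. They are the 250 bases before the start site, on the strand of the gene (RefSeq, GRCm38.p6), of the first 4 of the 15 genes named below whose window lies outside the annotated gene. Capitals mark the letters of AACAAT (SOX), AGGTCA (NR5A1) and GATAA (GATA), on either strand. Hspb1 lies at chr5:135887669-135887918, plus strand. Wfdc10 lies at chr2:164655796-164656045, plus strand. Cstdc1 lies at chr2:148781759-148782008, plus strand. Gatm lies at chr2:122611278-122611527, minus strand.
Hspb1: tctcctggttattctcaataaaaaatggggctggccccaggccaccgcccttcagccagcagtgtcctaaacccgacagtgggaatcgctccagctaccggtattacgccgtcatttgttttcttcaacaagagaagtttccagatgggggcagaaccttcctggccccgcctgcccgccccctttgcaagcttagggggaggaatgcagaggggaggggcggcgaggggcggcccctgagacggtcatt
Wfdc10: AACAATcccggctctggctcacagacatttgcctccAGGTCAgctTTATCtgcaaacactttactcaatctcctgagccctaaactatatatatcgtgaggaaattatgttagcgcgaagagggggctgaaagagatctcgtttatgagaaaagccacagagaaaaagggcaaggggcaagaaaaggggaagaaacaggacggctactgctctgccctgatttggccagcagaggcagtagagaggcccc
Cstdc1: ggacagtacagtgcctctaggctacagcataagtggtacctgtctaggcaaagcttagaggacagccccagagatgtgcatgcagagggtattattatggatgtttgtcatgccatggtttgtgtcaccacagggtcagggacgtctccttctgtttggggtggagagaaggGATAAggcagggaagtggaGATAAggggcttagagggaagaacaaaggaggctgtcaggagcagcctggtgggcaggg
Gatm: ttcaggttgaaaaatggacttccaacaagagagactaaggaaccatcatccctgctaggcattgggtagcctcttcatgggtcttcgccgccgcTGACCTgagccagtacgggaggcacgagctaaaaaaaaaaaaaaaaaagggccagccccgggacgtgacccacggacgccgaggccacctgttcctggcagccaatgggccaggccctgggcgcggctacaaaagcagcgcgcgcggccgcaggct
*Wfdc10* held each motif once, *Cstdc1* held GATAA 2 times, *Gatm* held the NR5A1 letters once, as TGACCT on the strand shown, and *Hspb1* held none. Of 12 named genes with an entry, 2 held the SOX letters, 4 the NR5A1 letters and 5 the GATA letters. Of these 12 windows 6 lie outside the annotated gene, and 1, 2 and 3 of those held the respective letters. Of all 32851 promoter windows of this length, 9.42% held the SOX letters, 14.0% the NR5A1 letters and 22.6% the GATA letters. These matches are letters and not shown to be bound. A transcript of the gene on the same strand was found to hold bases just after the start for 10 of the 12 genes, and not for *Cstdc1* and *Inha*.

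The label was checked on *Sox9*, a marker not used by the rule. It was detected in 90.2% and 92.3% of members and in 14.2% and 13.8% of cells outside the Sertoli rule. The counts of the rule's own markers follow from the choice and are a description. Of the members, 989 in wild type and 659 in the knockout-labelled library had all 4 of the other markers, and only 1 cell that met the *Amh* limit failed the limit on markers. *Amh* had a median of 13 UMIs per member in wild type, from 3 to 60, and 15 in the knockout-labelled library, from 3 to 56. Just inside the limit, 41 members had 3 UMIs of *Amh*. Just outside, 25 kept cells had 2 UMIs and met the rest of the rule. Those 25 cells held 1351 CPM of *Inha* against 2272 CPM in members with 4 or more *Amh* UMIs. They also held more of other types: 40% of them carried RNA of another type against 9.89%, *Dcn* was at 972 against 236 CPM and *Cyp11a1* at 1474 against 72.3 CPM. The part of this RNA in the lower *Inha* level was not tested. At the limit on cell division, 273 Sertoli cells were left out with 2 UMIs of a set.

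Non-cycling cells were 16.0% of kept cells in wild type (15.1 to 16.9%) and 13.7% in the knockout-labelled library (12.7 to 14.6%), a ratio of 0.853 (0.773 to 0.941). Within the Sertoli cells they were 44.9% (42.8 to 47.0%) and 41.4% (39.0 to 43.8%), and the interval of this ratio, 0.835 to 1.02, includes 1. Sertoli cells with over 1 UMI summed over *Ube2c*, *Plk1* and *Ccnb1* were called mitotic. Other Sertoli cells with over 1 UMI summed over *Mki67*, *Top2a*, *Pclaf* and *Rrm2* were called S phase, so these names too stand for limits on UMIs. S phase Sertoli cells were 13.8% and 12.5% of Sertoli cells, and mitotic Sertoli cells 41.3% and 46.1%, with a ratio of 1.12 (1.01 to 1.23). Depth differed between these states. Members had a median of 11815 UMIs in wild type and 13422 in the knockout-labelled library, while mitotic Sertoli cells had 18258 and 20028. Of the mitotic cells 12.2% and 16.7% were called doublets, against 6.71% and 8.73% of members. After each cell was thinned to 4000 UMIs, 60.2% of wild-type and 57.9% of knockout-labelled Sertoli cells were non-cycling, with a ratio of 0.962 (0.872 to 1.06). Thinning also left fewer cells that met the Sertoli rule, 1691 and 1167 in place of 2256 and 1634. When the Sertoli cells were kept as chosen at full depth and their cycling UMIs alone thinned, 59.0% and 55.1% were non-cycling, a ratio of 0.933 (0.857 to 1.02). For thinned cells the ratio of the share of all kept cells was 0.849 (0.769 to 0.937). The share of mitotic cells was not taken on thinned cells. Animal, library and genotype cannot be told apart here.

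**Figure D1:**
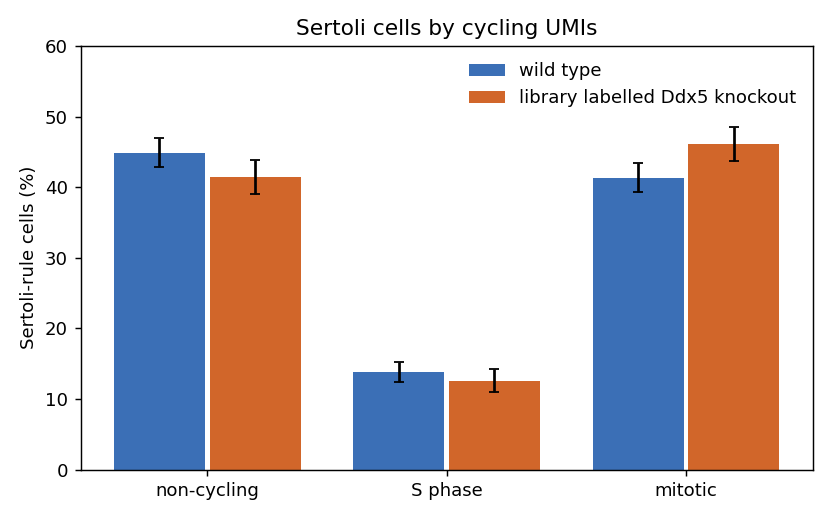
Share of Sertoli-rule cells (%, y axis) that were non-cycling, S phase or mitotic in wild type (blue) and in the library labelled *Ddx5* knockout (orange); bars are shares of 1 library each and lines exact 95% intervals of counting error. Non-cycling cells were 44.9% and 41.4%, mitotic cells 41.3% and 46.1%.

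Members with much RNA of other cells were a minority, but low counts were common. At least 1 UMI of the stromal markers was found in 51.7% of wild-type and 58.4% of knockout-labelled members. For the Leydig markers these shares were 29.5% and 33.0%. At least 10 summed UMIs of a marker list of another cell type were found in 88 wild-type members (8.69%) and in 84 knockout-labelled members (12.4%), mostly stromal markers (79 and 73 cells). Scrublet, a caller of doublets, marked 68 and 59 members, and each of these was among the cells above. Leydig cell markers, all 6 detected in both libraries, summed to 818 and 3220 UMIs, and 5 cells held 50.4% and 90.2% of them. The 7 macrophage markers summed to 539 and 444 UMIs, with 498 and 418 in 1 cell each. The 7 germ cell markers summed to 185 UMIs in wild type, 115 of them in 1 cell, and to 12 UMIs in the knockout-labelled library, where 3 markers were at 0. The 5 peritubular myoid markers summed to 1083 and 799 UMIs, and 1 was at 0 in the knockout-labelled library. The 5 endothelial markers summed to 330 and 254 UMIs with at most 9 in a cell, the 5 red cell markers to 1211 and 423, and the 2 rete markers to 59 and 5, with 1 at 0 in the knockout-labelled library. For the genes named between the libraries, ratios are given with and, where they differ or are singled out, without the cells that carry such RNA. Barcode sequences found in both libraries numbered 12, of which 2 were members in each library.

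Against all other kept cells, 819 of 15681 genes with at least 100 UMIs were over 2-fold higher in the members of both libraries, 5.22% of genes, and 3266 were more than 2-fold lower, 20.8% of genes. The other kept cells include the cycling Sertoli cells, so the ratios against cells outside the Sertoli rule are far larger. This contrast was used by the rule, and its values are a description. *Hspb1*, a small heat shock protein, was at 851 and 775 CPM in members of wild type and the knockout-labelled library, and at 27.2 and 17.8 CPM in cells outside the Sertoli rule. *Inha*, the inhibin alpha subunit, was at 2323 and 2185 CPM against 98.8 and 92.1 CPM. *Amhr2*, the receptor of anti-Müllerian hormone, was at 214 and 175 CPM against 7.03 and 4.86 CPM.

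The other genes of the 15 fall into groups. Secreted proteins were *Wfdc10* (237 and 226.7 CPM), *Cstdc1* of the cystatin family (329 and 363 CPM), the beta-defensin *Defb19* (2245 and 1929 CPM), the protease inhibitor *Serpina5* (154 and 113 CPM) and *Kazald1* (491 and 505 CPM). Enzymes were *Hsd17b1*, which converts sex steroids (441 and 451 CPM), *Gatm* of creatine synthesis (1036 and 923 CPM) and the glutathione transferase *Gstm2* (2327 and 2199 CPM). *Lgals7*, a galectin, was at 1346 and 1386 CPM, *Arhgdig* at 354 and 367 CPM, and *Cited1*, a transcriptional cofactor, at 440 and 357 CPM. *Tnni3*, the troponin I of heart muscle, was detected in 94.9% and 95.3% of members and in 6.63% and 5.49% of cells outside the Sertoli rule. All 15 were over 15-fold higher than in cells outside the Sertoli rule in both libraries.

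**Figure D2:**
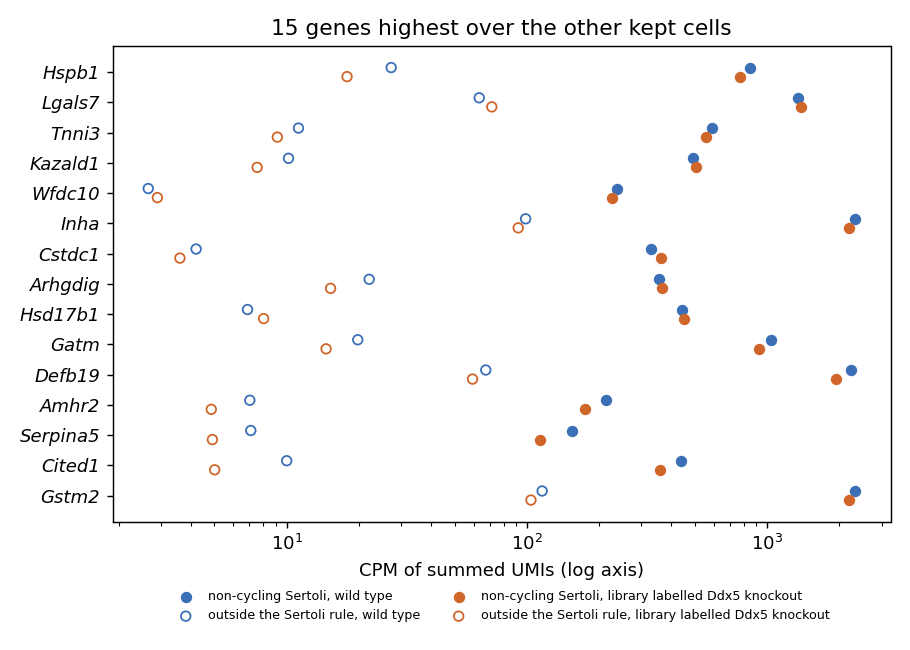
CPM of UMIs summed over cells (x axis, log scale) for the 15 genes with the largest ratio over the other kept cells (y axis), among genes in at least 50% of members and not used by the rule. Filled points are non-cycling Sertoli cells and open points kept cells outside the Sertoli rule, blue for wild type and orange for the library labelled *Ddx5* knockout. *Inha* was at 2323 and 2185 CPM in the members and at 98.8 and 92.1 CPM outside.

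Genes of the cystatin family, inhibitors of cysteine proteases, lie side by side on chromosome 2. In GRCm38.p6 *Cstdc1* spans 148782009 to 148785936, *Cst12* 148789365 to 148793432, *Cst8* 148798839 to 148805596 and *Cst9* 148835147 to 148838737. *Cstdc1* was 78.4-fold and 101-fold higher in members than in cells outside the Sertoli rule. *Cst8*, which lies between *Cst12* and *Cst9*, was not: it was at 152 and 165 CPM in members and at 139 and 168 CPM outside, and at 2152 and 2413 CPM in cells with Leydig markers. The rule used *Cst9* and *Cst12*. Reads shared by near-identical members of the cystatin, defensin and *Gstm* families could not be checked in the table.

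Of 12 transcription factors of the Sertoli lineage in this contrast, 8 were over 2-fold higher in both libraries and 1 was lower. *Sox9* was at 259 and 265 CPM. *Wt1* was at 251 and 248 CPM, *Gata4* at 190 and 204 CPM, *Nr5a1* at 84.7 and 105 CPM and *Dmrt1* at 95.3 and 89.3 CPM. *Lhx9*, of the early gonad, was the lower gene, at 14.9 and 23.7 CPM. *Gata4* and *Nr5a1* were only 2.03 and 1.98 times and 1.84 and 1.78 times as high as outside the Sertoli rule, while *Sox9* was 12.7 and 14.0 times as high. Of 12 genes for secreted factors 6 were higher. *Dhh*, desert hedgehog, was at 232 and 246 CPM, *Pdgfa* at 422 and 367 CPM, *Kitl*, the ligand of KIT on germ cells, at 239 and 217 CPM. *Ptgds*, a prostaglandin synthase, was at 930 and 1071 CPM, and *Inhbb*, an activin subunit, at 198 and 223 CPM. *Inha* completed the 6. *Gdnf*, which acts on germ cells, was not past 2-fold in both libraries and stood at 34.0 and 28.3 CPM, in 33.0% and 31.4% of members against 3.22% and 3.14% of cells outside the Sertoli rule. *Inhba*, *Cxcl12*, *Bmp4* and *Vegfa* were the 4 lower genes. Of 11 receptors 2 were higher: *Fshr*, the receptor of follicle-stimulating hormone, at 34.7 and 25.7 CPM, and *Amhr2*. The other way, 4 receptors were lower, and the median log2 ratio of the list was −0.19 and −0.35.

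Of 15 genes for tubule secretion and lysosomes 11 were higher and 1 lower, and of 12 glutathione genes 6 were higher and none lower. *Clu*, clusterin, was at 2524 and 2218 CPM, *Ctsl*, cathepsin L, at 3843 and 3625 CPM, and *Shbg*, which binds sex steroids, at 132 and 138 CPM. *Gstm6* was at 1031 and 888 CPM, 56.5-fold and 74.6-fold above cells outside the Sertoli rule. Of 15 junction genes 7 were higher and 2 lower. The higher ones included *Gja1*, a gap junction protein, at 393 and 363 CPM, *F11r* at 175 and 154 CPM and *Ocln*, occludin, at 55.5 and 54.0 CPM. *Cldn11*, the claudin of the later blood-testis barrier, was detected in 25.1% and 19.2% of members and in 1.33% and 1.09% of cells outside the Sertoli rule, at 26.8 and 17.8 CPM. Of 20 genes of cholesterol synthesis none was higher and 10 were lower, and of 19 genes of glycolysis and lactate 2 were higher, *Aldoa* and *Ldhb*. Of 7 steroid genes 2 were higher, *Hsd17b1* and *Hsd17b3*, and 5 were lower, among them *Cyp11a1*, *Cyp17a1* and *Star* of Leydig cells. Of 15 retinoid genes 1 was higher, *Aldh1a2*, which makes retinoic acid, and 7 were lower. Of 8 cytoskeleton genes 2 were higher, the keratins *Krt8* and *Krt18*, and 2 were lower, *Stmn1* and *Tuba1a*. The median log2 ratio was 1.04 and 0.94 for the transcription factors, 1.56 and 1.51 for the secretory genes and 0.97 and 0.98 for the glutathione genes, beside −0.06 and −0.04 over all genes tested.

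The cycling Sertoli cells were set apart by UMIs of cell division genes, so lower levels of other such genes in the members follow from the choice and are given as a description. Against S phase Sertoli cells 46 of 11163 genes were over 1.5-fold higher in both libraries, 0.412% of genes, and 429 were lower, 3.84% of genes. All 14 other replication genes were among the lower ones, with a median log2 ratio of −1.36 and −1.42, beside −0.01 and −0.01 over all genes tested. All 12 other mitosis genes were also lower than in S phase cells, with a median of −1.26 and −1.06. *Uhrf1*, of maintenance methylation, was at 19.2 and 20.01 CPM in members against 120 and 146 CPM in S phase cells. *Tk1*, thymidine kinase, was at 16.4 and 16.5 CPM against 109 and 121 CPM. *Clspn*, of the replication checkpoint, was at 0.130 and 0.174 of the S phase level. *Slfn9* was at 5.43 and 6.46 CPM against 60.4 and 71.1 CPM. Higher genes were fewer: the histone genes *H2bc4* (75.0 and 83.5 CPM against 41.5 and 34.7 CPM) and *H2aw*, the histone demethylases *Kdm5b* (226.97 and 214 CPM against 138 and 127 CPM) and *Kdm6b*, and *Tmem35a*. *Hmox1*, heme oxygenase, was at 91.2 and 112 CPM against 65.2 and 67.3 CPM, but 1 cell held 354 of its 1078 UMIs in the knockout-labelled members and 1 held 117 of 1176 in wild type. Of 5 macrophage markers 4 were also higher than in S phase cells. However, 1 member per library held most UMIs of the full list of 7, 498 of 539 in wild type and 418 of 444 in the knockout-labelled library.

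Against mitotic Sertoli cells 181 of 12544 genes were higher, 1.44% of genes, and 746 were lower, 5.95% of genes. Here too 12 of 12 mitosis genes were lower, and so were 6 of 14 replication genes. The mitosis genes had a median log2 ratio of −3.92 and −4.08 beside −0.03 and −0.01 over all genes tested. *Cenpf*, a kinetochore protein, was at 9.93 and 5.94 CPM against 600 and 632 CPM, and *Kif11*, a spindle motor, at 1.78 and 2.61 CPM against 217 and 232 CPM. *Nusap1*, *Prc1*, *Birc5* and *Tpx2*, of the spindle, were at 0.0339 of the mitotic level or lower. *Cdk1*, the mitotic kinase, was at 52.8 and 56.4 CPM against 445 and 520 CPM. *Ccl17*, a chemokine, was higher in members, at 116 and 169 CPM against 48.0 and 74.9 CPM, and so was *Aldoa*, aldolase of glycolysis, at 833 and 774 CPM against 451 and 383 CPM. *Fgf18*, a growth factor, was at 32.3 and 38.9 CPM against 14.9 and 16.4 CPM, *Tmem150a* at 34.3 and 30.2 CPM against 13.0 and 8.37 CPM, and *Prcd* and *Mtfr1l* were 1.69 to 2.02 times as high.

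Genes of the Sertoli lists mostly stayed within 1.5-fold between these states. No gene of the transcription factor list was over 1.5-fold higher than in S phase or mitotic cells in both libraries, and *Lhx9* alone was lower than in S phase, at 14.9 and 23.7 CPM in the members. No gene of the secreted factor, receptor, secretory or glutathione lists passed 1.5-fold in both libraries against either state. Over mitotic cells the median log2 ratio was 0.31 and 0.29 for the secretory list and 0.01 and 0.03 for the transcription factors, beside −0.03 and −0.01 over all genes tested. The 5 marker genes of the rule had 0.51 and 0.49, and 1 of them was over 1.5-fold higher than in mitotic cells in both libraries. *Sox9* was 0.991 and 0.925 of its level in mitotic cells. The CDK inhibitor *Cdkn1b* (p27) was at 30.3 and 29.5 CPM, 0.684 and 0.633 of its level in mitotic cells, and *Cdkn1c* (p57) at 21.3 and 31.5 CPM. *Cdkn2c* (p18) was at 0.298 and 0.216 of its S phase level and at 0.076 and 0.0518 of its mitotic level. *Stmn1*, which binds tubulin, was the 1 cytoskeleton gene lower than in both states. *Ccnd2*, a G1 cyclin, was at 923 and 1089 CPM and *Cdk4* at 375 and 359 CPM. Depth differed between the states, and its part in these ratios was not tested.

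**Figure D3:**
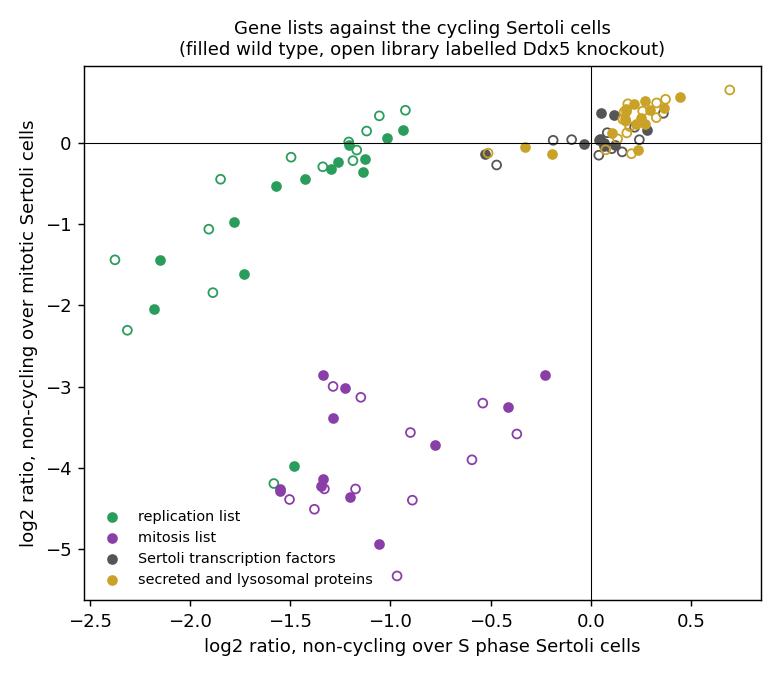
Log2 ratio of CPM (10 CPM added) of non-cycling over S phase Sertoli cells (x axis) and over mitotic Sertoli cells (y axis) for genes of 4 lists; filled points are wild type and open points the library labelled *Ddx5* knockout. Replication genes lie left of 0, with 1 of them far below 0, and mitosis genes far below 0 (median −3.92 and −4.08), while most Sertoli transcription factors and secretory genes lie near 0.

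Variation among members was measured on cells thinned to 4000 UMIs by the Fano factor, the variance over the mean, which counting alone puts near 1. Of 1340 genes with a mean of at least 0.5 UMIs, 30 had a Fano factor over 2 in both libraries, 2.24% of genes. *Meg3*, an imprinted noncoding RNA, had 17.5 and 14.5, and the tenth of cells with the most held 99.6% and 96.5% of its UMIs. *Dcn*, decorin of stromal cells, had 9.97 and 9.04. Without the cells that carry RNA of another type the lower of both values was 2.72 for *Meg3* and 1.001 for *Dcn*, and *Dcn* itself is on the list that marks those cells.

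Other variable genes had their UMIs in more of the members. *Malat1*, a nuclear noncoding RNA, ranged from 19 UMIs at the 10th percentile to 62 and 67 at the 90th, and *mt-Cytb*, mitochondrial, from 19 and 18 to 40 and 38. *Aard*, used by the rule, had a median of 7 UMIs and a 90th percentile of 15 in both libraries. *Cst9*, also used by the rule, had medians of 5 and 4 UMIs, *Defb19* 8 and 7, and *Lgals1*, a galectin, 6 and 8. *Pnmt*, the enzyme that makes adrenaline, had a median of 0 and 1 UMIs, with a 90th percentile of 3 and 5 UMIs and a Fano factor of 2.90 and 3.49. *Fabp3*, a fatty acid binding protein, had 3.13 and 3.76, and *Gm42418* 6.08 and 7.28. *Tmsb4x*, an actin binding protein, had 5.52 and 4.35, the lower of which was 2.51 without the cells that carry RNA of another type, and 1 wild-type cell held 652 of its 8211 UMIs.

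**Figure D4:**
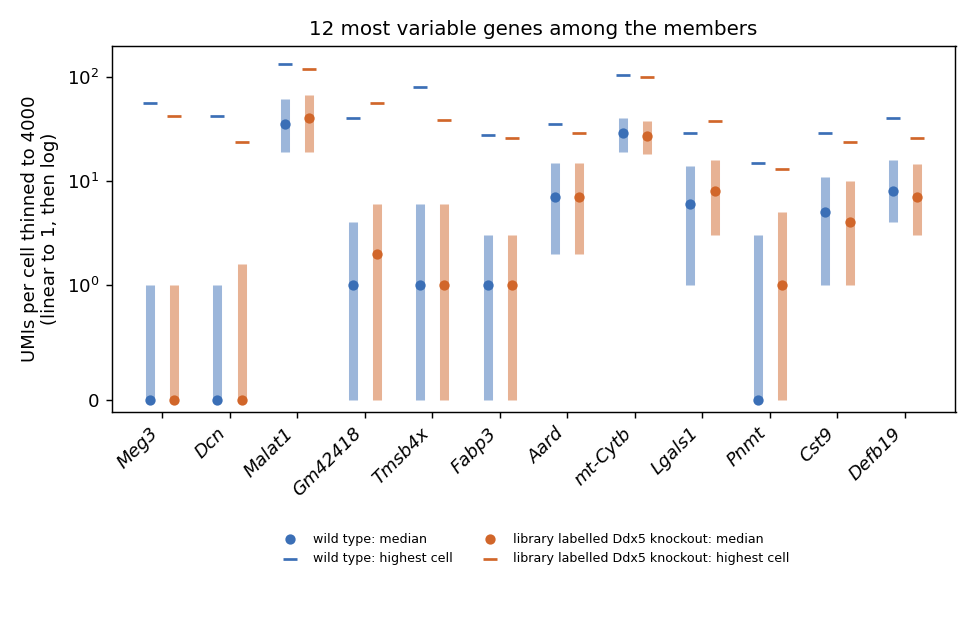
UMIs per member thinned to 4000 UMIs (y axis, linear to 1 and log above) for the 12 genes with the largest Fano factor; points are medians, thick bars the 10th to 90th percentile and dashes the highest cell, blue for wild type and orange for the library labelled *Ddx5* knockout. *Meg3* and *Dcn* have a median of 0 and single cells up to 56 and 42 UMIs, while *Malat1* is high in nearly all cells.

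Between the libraries, 176 of 10362 genes were over 1.5-fold higher in the knockout-labelled members, 1.7% of genes, and 128 were lower, 1.24% of genes. With 50 CPM added to both sides these numbers were 7 and 2, so that most such genes were of low level. Without the cells that carry RNA of another type 173 of the same 10362 genes were higher and 195 lower. Over only those genes that still had 100 UMIs, 81 were higher and 124 lower. The median log2 ratio of all genes tested was 0.00.

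Several of the 12 genes named as higher kept their ratio without those cells. *Ctsh*, cathepsin H, was at 78.9 CPM in wild type and 157 CPM in the knockout-labelled library, a ratio of 1.99 (1.83 to 2.15), and 2.05 without them. *Pnmt* was at 217 and 403 CPM, a ratio of 1.86 (1.77 to 1.95), and 1.91 without them. *Phlda3*, a p53 target, was at 33.0 and 69.6 CPM, a ratio of 2.11 (1.86 to 2.38), and 2.12 without them. *Apoc1*, an apolipoprotein, was at 23.4 and 42.7 CPM, a ratio of 1.82 (1.57 to 2.12), and the unannotated *CT010467.1* at 29.6 and 55.0 CPM. In cells outside the Sertoli rule the ratio was 1.27 for *Ctsh*, 1.83 for *Pnmt*, 1.40 for *Phlda3* and 1.78 for *CT010467.1*. For *Apoc1* it lay on the other side of 1 there, as given further on.

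For other named genes the ratio moved when cells with RNA of another type were left out. *Cyp11a1* and *Dcn* are themselves on the marker lists that pick those cells, so their fall, like that of the stromal markers and Leydig steroid genes, is set by that choice. *Cyp11a1*, which makes pregnenolone in Leydig cells, was at 23.97 and 135 CPM, a ratio of 5.61. In all, 1166 of its 1291 UMIs in the knockout-labelled members were in 5 cells. The ratio was 1.37 (1.03 to 1.83) without the cells with RNA of another type. *S100a6* had a ratio of 1.93 with them and 0.936 without, *Cebpb* 1.82 and 1.14, *Tppp3* 2.69 and 1.24, *Dcn* 1.70 and 1.21, and *Fbln1* 2.13 and 1.49. *Rbms3* had 2.08 and 4.29, the latter with an interval from 1.48 to 15.1. With only the called doublets left out, whose calling uses no marker list, the log2 ratio of *Cyp11a1*, with 10 CPM added to each level, was 1.92 in place of 2.09, that of *S100a6* 0.28 in place of 0.79, that of *Cebpb* 0.36 in place of 0.71 and that of *Tppp3* 0.25 in place of 0.80. The log2 ratio of *Dcn* went the other way, from 0.74 to 1.19, and so did the median of the stromal markers, from 0.56 to 0.85. Of the 7 stromal markers, 4 were over 1.5-fold higher with the cells with RNA of another type and 1 without. Of 6 steroid genes 3 were higher with those cells, *Cyp11a1*, *Hsd3b1* and *Cyp17a1*, and none was without.

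The 12 genes named as lower stayed below 1 without the cells with RNA of another type. *Gm43305* was at 26.2 and 4.59 CPM, a ratio of 0.175 (0.125 to 0.24), *Ptprv*, annotated as a transcribed pseudogene, at 28.5 and 6.98 CPM, a ratio of 0.245 (0.186 to 0.319), and *Wdfy1*, an endosomal protein, at 29.7 and 8.65 CPM, a ratio of 0.291 (0.227 to 0.37). These were also low outside the Sertoli rule, at 0.264, 0.363 and 0.396. The beta-defensins *Defb42*, at 44.5 and 17.3 CPM, and *Defb36*, at 133 and 66.0 CPM, had ratios of 0.389 (0.325 to 0.463) and 0.495 (0.451 to 0.542). On chromosome 2 *Defb36* spans 152604327 to 152612729 and *Defb19* 152576086 to 152580312, and *Defb19* had 0.859 (0.844 to 0.875). *Clec12b*, a lectin receptor, had 0.457, *4933402E13Rik* 0.479, *Spata21* 0.532 and *Gm47283* 0.583.

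Stress genes, with the immediate early genes among them, were next. Of 18, 5 were under 1/1.5 of wild type and none was over 1.5-fold higher, and 15 of the 18 intervals lay below 1, as did 1252 of 10362 over all genes tested, with a median log2 ratio of −0.26 beside 0.00 over all genes tested. *Fos* was at 53.4 and 26.2 CPM, a ratio of 0.490 (0.422 to 0.567), *Fosb* at 17.8 and 5.73 CPM, a ratio of 0.323 (0.236 to 0.435), and *Junb* at 86.6 and 49.7 CPM, a ratio of 0.574 (0.515 to 0.64). Without the cells with RNA of another type these were 0.468, 0.291 and 0.541. *Atf3* had 0.216 (0.114 to 0.383), *Zfp36* 0.534, *Egr1* 0.741 and *Jun* 0.869. Of the heat shock genes *Hspa1a* had 1.18 and *Hspa8* 0.836. Outside the Sertoli rule *Fos* had 0.474, *Fosb* 0.213 and *Junb* 0.624. The same direction was thus measured in other cells of the libraries, and library and genotype cannot be told apart.

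Most genes of the Sertoli lists stayed within 1.5-fold. Of 10 transcription factors 1 was over 1.5-fold higher, *Lhx9*, with a ratio of 1.59 and of 1.05 (0.435 to 2.44) without the cells with RNA of another type. Of 10 secreted factors 2 were higher, *Cxcl12*, with 1.54 and 1.18 without those cells, and *Inhba*. Without those cells none of the 10 was over and 1, *Vegfa*, was under 1/1.5, at 0.578 (0.309 to 1.04), from 0.832 (0.543 to 1.26) with all members. No gene of the secretion, glutathione or receptor lists was over 1.5-fold apart in either direction. *Amh* had a ratio of 0.982 (0.959 to 1.01) and *Inha* 0.941 (0.924 to 0.957). *Rhox8*, a homeobox gene of the X chromosome, had 0.763 (0.743 to 0.783), *Cst9* 0.872, *Cst12* 0.881 and *Aard* 0.973. *Sox9* had 1.02 (0.973 to 1.08), *Wt1* 0.987, *Nr5a1* 1.25 (1.14 to 1.36) and *Cited1* 0.813 (0.779 to 0.848). *Fshr* had 0.742 (0.633 to 0.869), *Gdnf* 0.834 (0.714 to 0.973), *Kitl* 0.905 and *Cldn11* 0.666 (0.551 to 0.802), the 1 junction gene under 1/1.5. Of 7 interferon genes 1 was over 1.5-fold, *Bst2* with 1.60 (1.41 to 1.82), and the list's median log2 ratio was 0.15. Without the cells with RNA of another type *Bst2* had 1.68 (1.40 to 2.01), and the median was −0.02 over the same 7 genes and 0.11 over those still tested. *Inhba*, an activin subunit, had 1.60 with all members and 1.21 without the cells with RNA of another type.

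**Figure D5:**
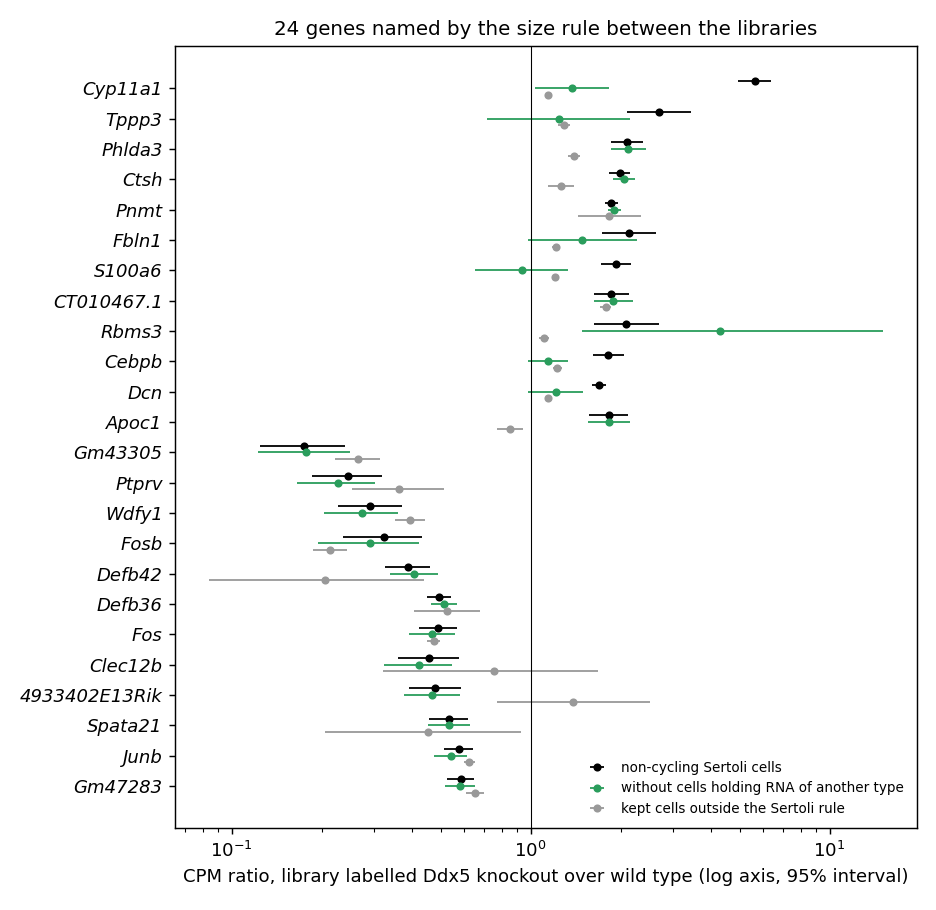
Ratio of CPM, knockout-labelled library to wild type (x axis, log scale) with exact 95% intervals of counting error for the 24 named genes (y axis); black is all non-cycling Sertoli cells, green those without RNA of another cell type, and grey kept cells outside the Sertoli rule. *Cyp11a1*, on a list that picks the cells left out, is at 5.61 with them and 1.37 without, and *Ctsh* is at 1.99 and 2.05.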

How the data were processed

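Testes were dissociated and captured with the Chromium 3′ kit v3. The authors made the deposited table of raw UMI counts (30451 genes, 12186 barcodes, not normalized, and before the study's own filter on cells). Their processing notes name Cell Ranger 3.1.0, Seurat 3.1.5 and GRCm38. UMIs were summed over cells of a group per library (12891681 and 9596245 UMIs in members) and scaled to CPM. Log2 ratios have 10 CPM added. Intervals are exact Poisson for sums, conditional binomial for ratios and Clopper-Pearson for shares, at 95%. Genes needed 100 UMIs in the groups compared, and counts past a fold use the plain CPM ratio (CPM with the stated value added in the alternatives on it). Doublets were called per library with Scrublet (scanpy 1.11.5) and kept. Other tools were pandas 2.3.3, SciPy 1.17.1 and NumPy 2.4.6. The ratio, interval and Fano factor were tested on simulated data.

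The members and gene lists were chosen with earlier results of these data known. Genes outside the lists were named by size: between libraries, the 12 higher and 12 lower whose interval lies farthest from 1 (at least 200 UMIs and 10% of cells of the higher library); over other kept cells, the 15 with the largest smaller log2 ratio of both libraries (at least 50% of cells); 12 by Fano factor; and 6 in each direction against S phase and mitotic cells (at least 25% of cells). Genes used by the rule were left out of the rankings over other kept cells and against S phase and mitotic cells. Alternatives changed 1 choice at a time. Leaving out members with RNA of another type was chosen after seeing the data. Some genes that these rules or lists would name are not reported here.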

Additional observations from a re-analysis of the deposited data

Results flagged for a closer look

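For 5 of 260 tested genes of the lists and named genes, beside 24 of all 10362 genes tested, the members and the kept cells outside the Sertoli rule had ratios between the libraries on opposite sides of 1, past 1.5-fold in the members, with both counting intervals excluding 1. The difference was not tested, since each genotype is 1 library. *Apoc1* had 1.82 in members and 0.854 outside, and 1.83 without members with RNA of another type. *Cdkn1a*, the CDK inhibitor p21, had 2.09 (1.41 to 3.15) in members, from 43 and 67 UMIs, and 0.555 outside, and 1.94 without those members. *Inhba* had 1.60 in members and 0.965 outside, and 1.21 without those members. *Hbb-bs*, a globin, had 0.292 in members, where 739 of 787 wild-type UMIs were in 1 cell, and 6.84 outside, and 1.88 without those members. *C1qb*, a macrophage gene, had 0.537 in members, from 115 and 46 UMIs, and 1.27 outside, and no UMI was left in the knockout-labelled members without those cells.

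Among the barcodes outside the cell filter, 32 met the rest of the rule, 16 in each library. They were left out of every comparison.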

How the results depend on the processing

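No paired analysis was possible because the barcodes carry no sample number, and no replicate could be left out since each genotype is 1 library. The ratio of the share of kept cells lay between 0.812 and 0.872 and that of the share of Sertoli cells between 0.877 and 0.962 over all alternatives. The shares themselves moved for wild type and the knockout-labelled library: to 18.2% and 15.7% of kept cells with at least 3000 genes, to 9.95% and 8.08% with 0 cycling UMIs (27.9% and 24.5% of Sertoli cells), to 60.2% and 57.9% of Sertoli cells after thinning, to 14.6% and 11.96% without cells with RNA of another type, and to 15.1% in wild type with at least 5 *Amh* UMIs. Genes past 1.5-fold numbered 7 higher and 2 lower with 50 CPM added, 675 and 568 with at least 20 UMIs, 3340 and 3883 with at least 1 UMI, and 81 higher without cells with RNA of another type, which leaves fewer genes with 100 UMIs (173 higher and 195 lower over the original genes). There *S100a6* turned to −0.041 (log2). Genes over the other kept cells numbered 1472 higher against cells outside the Sertoli rule alone, 1272 with the mean of single cells, and 2172 lower with 1 CPM added. At 6000 UMIs 58 genes had a Fano factor over 2. The cause of these moves was otherwise not tested.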
